A study of Mus musculus with 12 samples.

Results

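RNA of the whole spinal cord was examined for 6 receptors of the Siglec family, Cd22, Cd33, Siglecf, Siglece, Siglecg and Siglec1, in 7 months old mice of 4 genotypes with 3 mice each. The members were taken by gene symbol from a count table of 45906 genes, and all 6 were among the 20155 genes with enough counts to be tested. The mice were Plekhg5+/+, Plekhg5-/-, Plekhg5+/+ SOD1-G93A or Plekhg5-/- SOD1-G93A. Plekhg5 is a guanine exchange factor whose loss causes lower motoneuron disease, and SOD1-G93A is a human SOD1 transgene that carries a mutation of familial amyotrophic lateral sclerosis (ALS). All mice had a C57BL/6 background, and the transgenic mice also had their own mouse Sod1 gene. The promoter of the transgene and the way in which Plekhg5 was inactivated are not given in the sources used here. The study asked how the loss of Plekhg5 acts on the disease of SOD1-G93A mice.

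Siglecs are cell surface receptors that bind sialic acid, the sugar at the outer end of most glycan chains of vertebrate cells. Most of them carry an inhibitory motif (ITIM) in their cytoplasmic tail that recruits the phosphatase SHP-1, encoded by Ptpn6, and thereby dampens signals of activating receptors. In the brain and spinal cord they are known mainly from microglia, the resident macrophages, which meet sialic acid on neurons and glia. Cd22, best known as an inhibitory receptor of B cells, binds sialic acid in an α2,6 linkage. Cd33, Siglecf, Siglece and Siglecg form the CD33-related group, which is known from myeloid cells in general, from eosinophils and alveolar macrophages, from neutrophils and macrophages, and from B cells, respectively. Siglec1, or sialoadhesin, is a macrophage receptor without an ITIM that binds sialylated cells and particles.

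The 12 libraries held 30415643 to 38743628 counts. The markers of spinal cord tissue were present in each genotype, with a summed level of 261 to 348 CPM (counts scaled to library size) for 6 Hox genes of the trunk and of 201 to 306 CPM for 6 motoneuron markers. Plekhg5 (chromosome 4, 152072433 to 152115404) had 22.9 ± 3.08 CPM in Plekhg5+/+ and 22.4 ± 2.19 CPM in Plekhg5+/+ SOD1-G93A mice, against 3.99 ± 0.712 CPM in Plekhg5-/- and 4.26 ± 0.413 CPM in Plekhg5-/- SOD1-G93A mice (mean ± SD, n = 3 here and in the following). Human SOD1 had 5 to 187 counts in the mice without the transgene and 142349 to 196852 counts in those with it. Transcripts of the Y chromosome were present in 3 Plekhg5+/+, 2 Plekhg5-/-, 2 Plekhg5+/+ SOD1-G93A and 1 Plekhg5-/- SOD1-G93A libraries. The first Plekhg5+/+ SOD1-G93A library stood apart from the other two of its genotype in the microglial genes, with a summed level of 1713 CPM for 12 microglial markers against 954 and 1011 CPM. Fold changes of the members, their levels relative to microglial markers and the counts of the gene lists in comparisons with this genotype are also given without this library.

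The genes lie at 3 places of the mouse genome (GRCm38.p6). Siglecf (chromosome 7, 43351341 to 43359475, plus strand), Siglecg (43408192 to 43418349, plus strand), Cd33 (43527399 to 43537424, minus strand) and Siglece (43648882 to 43672044, minus strand) form a cluster of 0.321 Mb. Cd22 (chromosome 7, 30865404 to 30880342, minus strand) lies 12.5 Mb before this cluster and close to Mag, the Siglec of myelin. Siglec1 (chromosome 2, 131067801 to 131086778, minus strand) lies alone. A RefSeq promoter window on GRCm38.p6 was used for 5 of the 6 members. The 250 bases before the start are shown for the 3 members whose transcripts rose with SOD1-G93A and for Siglece, a neighbour in the cluster that did not pass the test. Siglecg, also in the cluster, did not pass either and is not shown. Capitals mark a run of 16 bases that Siglecf and Cd33 have in common, and the sequence GAGGAA or its reverse complement TTCCTC, a core to which the myeloid transcription factor PU.1 binds.
Siglecf, chr7:43351091-43351340, plus strand: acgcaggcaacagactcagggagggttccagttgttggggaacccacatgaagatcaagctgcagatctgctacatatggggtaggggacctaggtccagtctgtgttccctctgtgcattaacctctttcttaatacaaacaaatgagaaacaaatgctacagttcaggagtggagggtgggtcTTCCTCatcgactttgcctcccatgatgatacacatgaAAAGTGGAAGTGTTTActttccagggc
Cd33, chr7:43533172-43533421, minus strand: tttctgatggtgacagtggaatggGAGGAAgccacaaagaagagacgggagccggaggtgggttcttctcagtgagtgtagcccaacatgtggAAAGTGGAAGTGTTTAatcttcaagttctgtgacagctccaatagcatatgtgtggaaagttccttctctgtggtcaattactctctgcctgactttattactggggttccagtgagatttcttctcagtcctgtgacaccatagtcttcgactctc
Cd22, chr7:30879029-30879278, minus strand: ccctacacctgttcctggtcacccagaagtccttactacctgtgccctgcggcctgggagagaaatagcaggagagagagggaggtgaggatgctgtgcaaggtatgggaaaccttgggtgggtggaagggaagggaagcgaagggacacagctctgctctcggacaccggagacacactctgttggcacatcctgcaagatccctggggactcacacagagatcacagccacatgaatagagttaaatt
Siglece, chr7:43660162-43660411, minus strand: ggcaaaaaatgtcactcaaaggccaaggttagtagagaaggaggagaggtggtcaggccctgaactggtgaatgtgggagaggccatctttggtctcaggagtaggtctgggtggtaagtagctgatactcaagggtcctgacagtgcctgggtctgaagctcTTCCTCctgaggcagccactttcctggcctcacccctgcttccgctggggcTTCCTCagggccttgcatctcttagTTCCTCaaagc

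The shared run AAAGTGGAAGTGTTTA began 27 bases before the start of Siglecf and 157 bases before that of Cd33, on the strand of the gene in both. Among 32851 promoter windows of the same length, it was found on either strand in 2, those of Siglecf and Cd33. The longest run shared by any other pair of members had 10 bases. Pairs were compared on the strand of the gene only, with the first listed window of each member. GAGGAA, searched on both strands, was found in the windows of Siglecf, Cd33, Siglece and Siglecg and in 23.3% of all windows, and was not found in the 250 bases of Cd22. Siglece held it 3 times. The runs and motifs were chosen after the sequences were read and are a description of these windows. The windows of Cd33, Cd22 and Siglece lie inside the stretch over which the gene was counted, because the table takes the start of one transcript only.

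Plekhg5+/+ SOD1-G93A mice were compared with Plekhg5+/+ mice first. Cd22, Siglecf and Cd33 rose, by 7.74-fold, 7.54-fold and 2.29-fold, and 3 of the 6 members were therefore changed, all upward, at an adjusted p under 0.05 (edgeR). Over all genes tested 2.09% were higher at this threshold and 0.377% lower. Of the members 2, Cd22 and Siglecf, were called higher without the first Plekhg5+/+ SOD1-G93A library, as were 1.05% of all genes tested. The groups did not overlap for 4 members, Cd22, Cd33, Siglecf and Siglec1, all higher with SOD1-G93A, against 11.6% of all genes. Taken over the 6 members, log2 fold changes had a median of 1.55, and over all genes tested of 0.00. In RNA of a whole tissue, a change in the number of cells of a type and a change in RNA per cell cannot be told apart.

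Cd22 had 0.493, 0.567 and 0.582 CPM in the 3 Plekhg5+/+ libraries and 7.67, 2.54 and 2.55 CPM in the 3 Plekhg5+/+ SOD1-G93A libraries. Every transgenic library was above every control, and the first was 3.01 times the next highest. The log2 fold change was 2.95 (SE 0.418, adjusted p = 0.01246, edgeR), the 12th smallest p of all genes tested. Without the first Plekhg5+/+ SOD1-G93A library the log2 fold change was 2.21 (adjusted p = 0.0003588, edgeR). Over the alternatives tried the adjusted p lay between 2.039e-10 and 0.09156.

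Siglecf had 0.522, 0.692 and 0.429 CPM in Plekhg5+/+ and 7.67, 2.51 and 2.25 CPM in Plekhg5+/+ SOD1-G93A libraries, a pattern close to that of Cd22. The raw counts behind it were 14 to 22 in the controls and 75 to 247 in the transgenic mice, with no fractional count in any library. Its log2 fold change was 2.91 (SE 0.453, adjusted p = 0.01246, edgeR). Without the first Plekhg5+/+ SOD1-G93A library it was 2.11 (adjusted p = 0.0008784, edgeR), and over the alternatives the adjusted p lay between 3.667e-09 and 0.09228.

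Cd33, the receptor that gives the group its name, had 3.04, 5.19 and 6.03 CPM in Plekhg5+/+ and 13.4, 9.97 and 9.30 CPM in Plekhg5+/+ SOD1-G93A libraries. The groups did not overlap, but the lowest control lay well under the other two. The log2 fold change was 1.19 (SE 0.219, adjusted p = 0.01973, edgeR). It was 1.02 with an adjusted p of 0.05821 (edgeR) without the first Plekhg5+/+ SOD1-G93A library, so that the call was lost. Over the alternatives the adjusted p of Cd33 lay between 1.958e-05 and 0.09812.

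Siglec1 had 0.870, 1.45 and 0.490 CPM in Plekhg5+/+ and 6.58, 1.72 and 2.28 CPM in Plekhg5+/+ SOD1-G93A libraries. The lowest transgenic library was only slightly above the highest control. With a log2 fold change of 1.92 (SE 0.554, adjusted p = 0.09374, edgeR) the gene did not pass the test, whereas DESeq2 gave an adjusted p of 0.01006. Leaving out the first Plekhg5+/+ SOD1-G93A library moved the log2 fold change to 1.10 (adjusted p = 0.3383, edgeR), and leaving out the second moved it to 2.22 (adjusted p = 0.03818, edgeR). The adjusted p lay between 0.005846 and 0.3383 over the alternatives.

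Siglecg had the fewest counts of the members, 4 to 11 in Plekhg5+/+ and 7 to 24.5 in Plekhg5+/+ SOD1-G93A libraries. Its levels of 0.145, 0.346 and 0.122 CPM in the controls overlapped with 0.761, 0.231 and 0.390 CPM in the transgenic mice. The log2 fold change was 1.16 (SE 0.520, adjusted p = 0.2456, edgeR), and 0.62 without the first Plekhg5+/+ SOD1-G93A library. Siglece had 1.19, 1.32 and 1.32 CPM in Plekhg5+/+ and 1.27, 1.55 and 1.47 CPM in Plekhg5+/+ SOD1-G93A libraries. The ranges overlapped and the log2 fold change was 0.17 (SE 0.163, adjusted p = 0.6627, edgeR), smaller than that of each other member. It was 0.24 without the first Plekhg5+/+ SOD1-G93A library. Over all 12 libraries the highest level of Siglece was 1.59 times the lowest, against 15.6 times for Cd22 and 17.9 times for Siglecf.

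**Figure D1:**
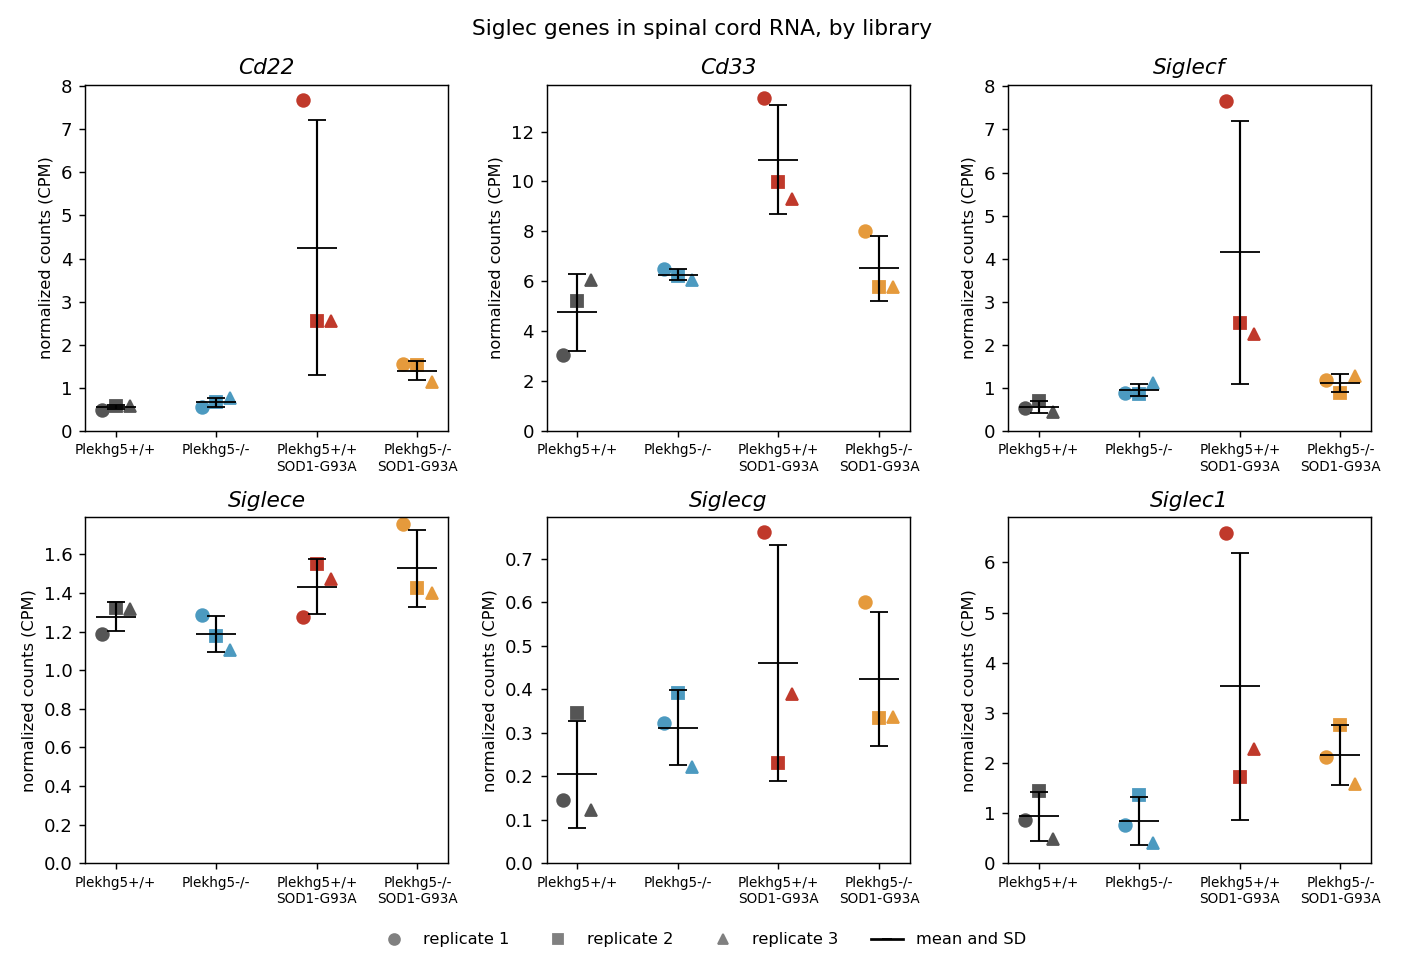
Level of each Siglec gene in the 12 libraries, in CPM (counts scaled to library size) on a linear axis from 0, by genotype. Each symbol is 1 mouse (circle, square and triangle for replicates 1, 2 and 3), and lines with bars are the mean and SD of 3 mice. For Cd22 and Siglecf the first Plekhg5+/+ SOD1-G93A library lies at 7.67 CPM, and the other two lie between 2.25 and 2.55 CPM, above all controls.

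The transgenic genotypes were compared next, Plekhg5-/- SOD1-G93A against Plekhg5+/+ SOD1-G93A. No member passed an adjusted p under 0.05 with edgeR, which called 7 of all genes tested, 0.0149% of them higher and 0.0198% lower. The estimates of Cd22, Cd33 and Siglecf were lower without Plekhg5, with an unadjusted p under 0.05 for these 3 members and for 5.05% of all genes tested in this direction. The groups did not overlap for the same 3 members, against 10% of all genes. Of 12 microglial markers, 10 were likewise lower at an unadjusted p under 0.05 (edgeR), and 10 did not overlap. Without the first Plekhg5+/+ SOD1-G93A library 3 members and 9 of the 12 markers were lower at this threshold, against 2.85% of all genes. DESeq2 without a prior on the fold changes called 2 of the 6 members, Cd22 and Siglecf, and 75 genes in all.

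Cd22 had 1.54, 1.52 and 1.14 CPM in the Plekhg5-/- SOD1-G93A libraries, below the 2.54 CPM of the lowest Plekhg5+/+ SOD1-G93A library. The log2 fold change was -1.61 (SE 0.365, unadjusted p = 0.0007992, adjusted p = 0.4024, edgeR). DESeq2 gave an adjusted p of 0.02359, and over the alternatives it lay between 0.0004496 and 0.8693. Without the first Plekhg5+/+ SOD1-G93A library the estimate was -0.87 (adjusted p = 0.6442, edgeR).

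Siglecf had 1.17, 0.880 and 1.27 CPM in the Plekhg5-/- SOD1-G93A libraries, all below the 2.25 CPM of the lowest Plekhg5+/+ SOD1-G93A library. The log2 fold change was -1.90 (SE 0.405, unadjusted p = 0.0004874, adjusted p = 0.3388, edgeR), the largest difference among the members in this comparison. DESeq2 gave an adjusted p of 0.008622, and over the alternatives it lay between 8.512e-05 and 0.8693. The estimate was -1.10 without the first Plekhg5+/+ SOD1-G93A library (adjusted p = 0.5015, edgeR).

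Cd33 had 8.02, 5.78 and 5.75 CPM in the Plekhg5-/- SOD1-G93A libraries, also below every Plekhg5+/+ SOD1-G93A library. Its log2 fold change was -0.74 (SE 0.215, unadjusted p = 0.00459, adjusted p = 0.4156, edgeR). It was -0.57 without the first Plekhg5+/+ SOD1-G93A library, and no setting tried called it. Siglec1 had 2.13, 2.76 and 1.58 CPM, and overlapped with the Plekhg5+/+ SOD1-G93A libraries. Its log2 fold change of -0.72 (SE 0.509, adjusted p = 0.6731, edgeR) turned to 0.10 without the first of those libraries.

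Siglecg, with 0.601, 0.334 and 0.337 CPM, had a log2 fold change of -0.10 (SE 0.450, adjusted p = 0.9516, edgeR), and its sign also turned without the first Plekhg5+/+ SOD1-G93A library (0.44). Siglece had 1.76, 1.43 and 1.40 CPM and a log2 fold change of 0.09 (SE 0.160, adjusted p = 0.8712, edgeR), which was 0.0144 without that library. Both genes overlapped between the genotypes.

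Whether SOD1-G93A moved the members differently with and without Plekhg5 was tested by the interaction of both alleles. No member and no other gene passed an adjusted p under 0.05 with edgeR (0% of the genes tested in either direction). The interaction of 3 members was negative at an unadjusted p under 0.05, against 5.18% of all genes tested. These were Siglecf with -2.68 on the log2 scale (SE 0.635, adjusted p = 0.3384), Cd22 with -1.87 (SE 0.595, adjusted p = 0.4072) and Cd33 with -1.14 (SE 0.310, adjusted p = 0.375, all edgeR). A negative interaction at an unadjusted p under 0.05 was also found for 10 of 12 microglial markers (edgeR), so it was not particular to the members. The markers were not counted here without the first Plekhg5+/+ SOD1-G93A library. The interaction was 0.19 for Siglece (SE 0.229), -0.72 for Siglecg (SE 0.705) and -0.57 for Siglec1 (SE 0.796), and that of Siglec1 turned to 0.24 without the first Plekhg5+/+ SOD1-G93A library. With DESeq2 the adjusted p of Siglecf was 0.01436, and 1 of the 6 members and 95 genes in all were called. The adjusted p over the alternatives lay between 0.004484 and 0.7998 for Siglecf. The same Plekhg5+/+ SOD1-G93A libraries enter this test and the comparisons before it.

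**Figure D2:**
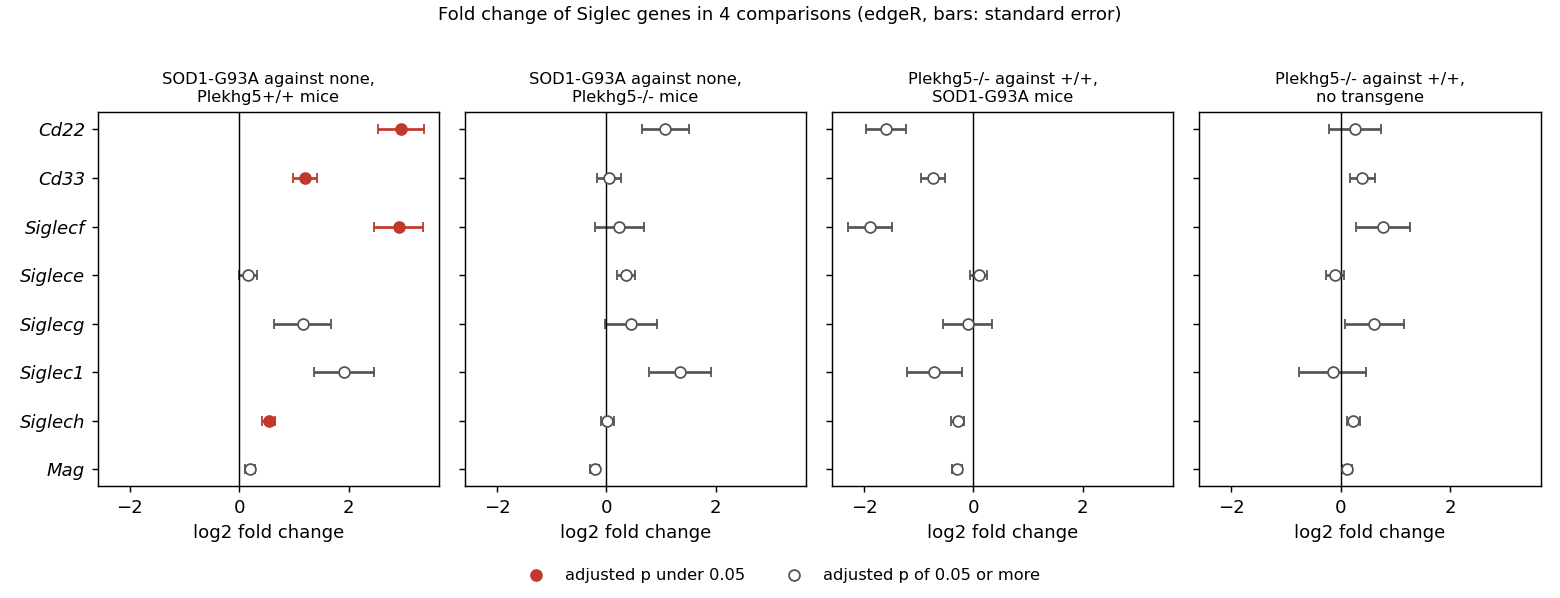
Log2 fold change of the 6 Siglec members and of Siglech and Mag in 4 comparisons, from edgeR, with bars of 1 standard error. Filled points have an adjusted p under 0.05. Cd22, Cd33 and Siglecf are filled in the first panel, at 2.95, 1.19 and 2.91, and no member is filled in the other 3 panels.

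In mice without the transgene, Plekhg5-/- was compared with Plekhg5+/+. None of the members passed an adjusted or an unadjusted p under 0.05 with edgeR, and 0 were called by DESeq2. Unadjusted, 2.53% of all genes were higher and 2.79% lower. Over all genes tested 0.0149% were called higher and 0.0149% lower. The groups did not overlap for 2 members, Cd33 and Siglecf, both higher without Plekhg5, against 4.71% of all genes. Siglecf had 0.878, 0.844 and 1.10 CPM in Plekhg5-/- libraries, with a log2 fold change of 0.78 (SE 0.489, adjusted p = 0.9763, edgeR). Cd33 had 6.50, 6.21 and 6.06 CPM there, just above the highest control, with a log2 fold change of 0.40 (SE 0.224, adjusted p = 0.9637, edgeR). Cd22 had 0.561, 0.663 and 0.757 CPM and a log2 fold change of 0.26 (SE 0.470, adjusted p = 0.997, edgeR). The log2 fold changes were -0.10 for Siglece, 0.61 for Siglecg and -0.14 for Siglec1, and all 3 overlapped with the controls.

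SOD1-G93A in mice without Plekhg5 was examined by comparing Plekhg5-/- SOD1-G93A with Plekhg5-/-. No member was called by edgeR or by DESeq2, and edgeR called 0.00496% of all genes higher, which is 1 gene, and 0% lower. An unadjusted p under 0.05 was reached by 3 members, Cd22, Siglec1 and Siglece, all higher, and by 3.27% of all genes tested in this direction. The same 3 members did not overlap between the genotypes, against 7.26% of all genes. Cd22 had a log2 fold change of 1.08 (SE 0.424, adjusted p = 0.8553, edgeR), from levels of 0.561 to 0.757 CPM without and 1.14 to 1.54 CPM with the transgene. Siglec1 had 0.761, 1.36 and 0.410 CPM without and 2.13, 2.76 and 1.58 CPM with the transgene, a log2 fold change of 1.34 (SE 0.571, adjusted p = 0.8921, edgeR). Siglece had 1.29, 1.18 and 1.10 CPM against 1.76, 1.43 and 1.40 CPM, a log2 fold change of 0.36 (SE 0.162, adjusted p = 0.9117, edgeR). The estimates of Cd33 (0.06), Siglecf (0.24) and Siglecg (0.44) came with overlapping libraries.

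Since the members are known from microglia, their levels were set against those of 12 microglial markers in the same libraries. Of these markers 10 rose with SOD1-G93A in Plekhg5+/+ mice (adjusted p under 0.05, edgeR), against 2.09% of all genes tested. The median was 1.13 on the log2 scale over the 12. Of the 12, 9 rose without the first Plekhg5+/+ SOD1-G93A library, against 1.05% of all genes, with a median of 0.83. Their summed level was 533 to 605 CPM in Plekhg5+/+, 574 to 762 CPM in Plekhg5-/-, 954 to 1713 CPM in Plekhg5+/+ SOD1-G93A and 732 to 805 CPM in Plekhg5-/- SOD1-G93A libraries. For each member the mean log2 level of the markers was subtracted from its own log2 level, with 0.1 CPM added to every value. With 3 mice against 3, the two-sided exact permutation test used here cannot give a p under 0.1, and its p-values are given without adjustment for the 24 tests made.

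Relative to the markers, Cd22 was at -5.89, -5.54 and -5.67 in Plekhg5+/+ libraries and at -3.61, -4.41 and -4.49 in Plekhg5+/+ SOD1-G93A libraries on the log2 scale. The difference of 1.52 had no overlap between the groups (exact permutation p = 0.1, the smallest possible). Siglecf was at -5.82, -5.29 and -6.03 against -3.61, -4.43 and -4.67, a difference of 1.48 (exact permutation p = 0.1). The differences were 1.24 for Cd22 and 1.16 for Siglecf without the first Plekhg5+/+ SOD1-G93A library. With 1 CPM added in place of 0.1 CPM they were 0.63 and 0.59. The direction was the same in each of these settings, and the size depended on the value added. Cd33 differed by 0.19 (exact permutation p = 0.8) and Siglec1 by 0.65 (exact permutation p = 0.4), with overlap in both, and by 0.27 and 0.32 without that library. For Cd33 the difference was -0.0936 with 7 markers, the homeostatic ones left out. Siglece lay lower relative to the markers, by -0.88 (exact permutation p = 0.1, no overlap), while its own level overlapped. The difference for Siglece was -0.56 without the first Plekhg5+/+ SOD1-G93A library.

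In Plekhg5-/- SOD1-G93A against Plekhg5+/+ SOD1-G93A mice the relative level of Cd22 differed by -0.76 and that of Siglecf by -1.01 (exact permutation p = 0.1 for each, no overlap). Without the first Plekhg5+/+ SOD1-G93A library these differences were -0.48 and -0.70, and with 1 CPM added they were -0.42 and -0.56. Cd33 differed by -0.14 (exact permutation p = 0.5), with overlap, and by -0.22 without that library. Siglece and Siglecg were higher relative to the markers, by 0.68 and 0.57 (exact permutation p = 0.1 for each), while the markers themselves were lower. With that library left out these differences were 0.36 for Siglece and 0.69 for Siglecg. Without the transgene, no member was apart between Plekhg5-/- and Plekhg5+/+ mice relative to the markers. In mice without Plekhg5, the relative levels of Cd22 and Siglec1 were 0.71 and 1.09 higher with SOD1-G93A (exact permutation p = 0.1 for each, no overlap), and those of the other 4 members overlapped.

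**Figure D3:**
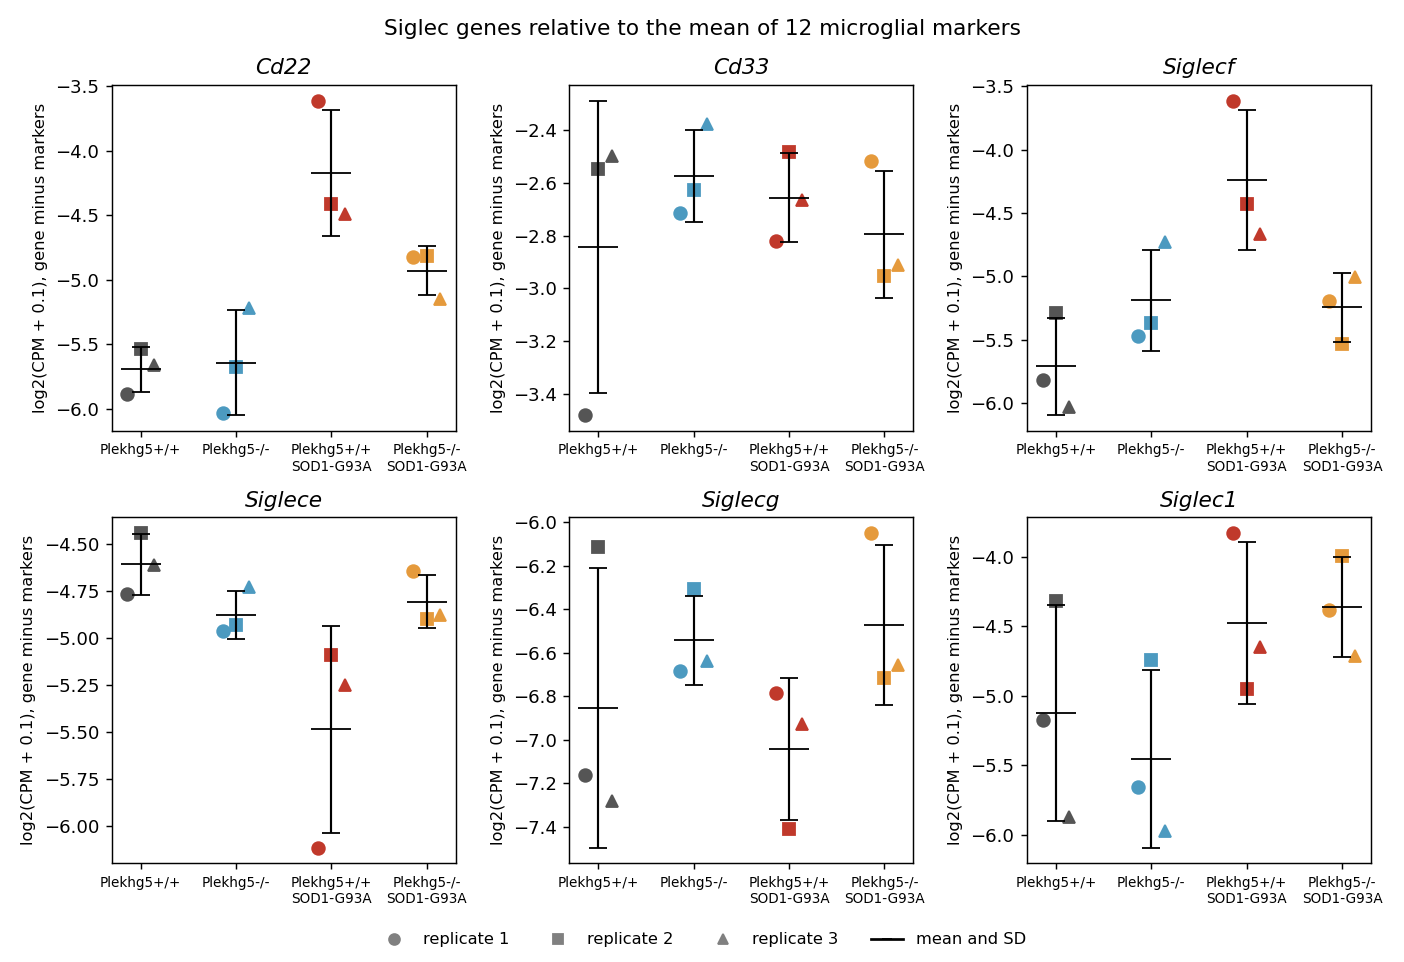
Level of each Siglec gene relative to 12 microglial markers, as log2(CPM + 0.1) of the gene minus the mean log2(CPM + 0.1) of the markers, by genotype, with an axis range of its own for each gene. Symbols are mice (circle, square and triangle for replicates 1, 2 and 3), and lines with bars are the mean and SD of 3 mice. Plekhg5+/+ SOD1-G93A mice lie above Plekhg5+/+ mice for Cd22 (difference 1.52) and Siglecf (1.48), overlap for Cd33 and lie below for Siglece (-0.88).

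Cells other than microglia that are known for these receptors were examined by their markers. Of 8 B cell markers 7 were tested, and 2 rose with SOD1-G93A in Plekhg5+/+ mice, against 2.09% of all genes tested. These were Cd79b with a log2 fold change of 1.84 and Blnk, an adaptor also found in microglia, with 1.35. The other 5 did not pass. Without the first Plekhg5+/+ SOD1-G93A library 1 rose, Blnk with 0.99, against 1.05% of all genes. The summed level of the 8 B cell markers was 4.38 to 6.14 CPM in Plekhg5+/+ and 8.99 to 16.4 CPM in Plekhg5+/+ SOD1-G93A libraries, against 5.59 to 6.61 CPM in Plekhg5-/- and 8.12 to 9.51 CPM in Plekhg5-/- SOD1-G93A libraries. The sum was higher in every Plekhg5+/+ SOD1-G93A than in every Plekhg5+/+ library, as Cd22 was, and overlapped between the transgenic genotypes, where Cd22 did not. The part of B cells in the result was not tested.

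Of 7 eosinophil markers 2 had enough counts to be tested. Both were higher with SOD1-G93A in Plekhg5+/+ mice at an unadjusted p under 0.05 (edgeR), as were 10.6% of all genes, and 0 passed the adjustment. Without the first Plekhg5+/+ SOD1-G93A library 4 were tested, 2 had an unadjusted p under 0.05, higher, and 0 passed. The sum of all 7 was 0.598 to 1.27 CPM in Plekhg5+/+ and 1.72 to 4.54 CPM in Plekhg5+/+ SOD1-G93A libraries. It was 1.24 to 1.97 CPM in Plekhg5-/- and 1.46 to 4.79 CPM in Plekhg5-/- SOD1-G93A libraries. The sum was thus higher in every Plekhg5+/+ SOD1-G93A than in every Plekhg5+/+ library, and overlapped between the transgenic genotypes. Ccr3 and Prg3, both markers of eosinophils, were at 0 in all Plekhg5+/+ libraries. Within Plekhg5+/+ SOD1-G93A mice the eosinophil sum was highest in the third library, at 4.54 CPM, and Siglecf was highest in the first, where that sum was 2.24 CPM. Their part in the result for Siglecf was not tested. None of 8 neutrophil markers and none of 6 monocyte markers passed the test in this comparison. All 8 neutrophil estimates were positive, with a median log2 fold change of 1.41, and of 1.09 without the first Plekhg5+/+ SOD1-G93A library. The neutrophil sum was 13.9 to 64.9 CPM in Plekhg5+/+ and 40.1 to 135 CPM in Plekhg5+/+ SOD1-G93A libraries, with overlap. The monocyte sum was 52.1 to 59.5 and 47.2 to 68.4 CPM, also with overlap. The part of these cells in the result was not tested. Of 8 markers of macrophages at the borders of the tissue, 1 rose, against 2.09% of all genes tested. This was Ms4a7 with a log2 fold change of 2.58 (2.39 without the first Plekhg5+/+ SOD1-G93A library). The sum of the 8 overlapped, with medians of 21.8 CPM in Plekhg5+/+ and 16.9 CPM in Plekhg5+/+ SOD1-G93A libraries.

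Levels of different genes were compared per kilobase of exon. In Plekhg5+/+ mice Cd33 was highest of the members with 1.52 ± 0.492 CPM per kilobase, followed by Siglece (0.242 ± 0.0143), Siglecf (0.209 ± 0.0511), Siglec1 (0.117 ± 0.0605), Cd22 (0.117 ± 0.0101) and Siglecg (0.0529 ± 0.0319). Siglece and Siglecf, Siglecf and Siglec1, Siglec1 and Cd22, and Siglec1 and Siglecg overlapped between libraries. In Plekhg5+/+ SOD1-G93A mice the order was Cd33 (3.47 ± 0.695), Siglecf (1.58 ± 1.17), Cd22 (0.907 ± 0.631), Siglec1 (0.443 ± 0.334), Siglece (0.272 ± 0.0271) and Siglecg (0.119 ± 0.0704). Siglecf and Cd22, Siglec1 and Siglece, and Siglec1 and Cd22 overlapped between these libraries. Without the first library the means were 3.07 for Cd33, 0.909 for Siglecf, 0.543 for Cd22, 0.287 for Siglece, 0.251 for Siglec1 and 0.0803 for Siglecg, so that Siglece and Siglec1 changed places. In Plekhg5-/- SOD1-G93A mice Cd33 had 2.08 ± 0.415, Siglecf 0.423 ± 0.0772, Cd22 0.299 ± 0.0481, Siglece 0.290 ± 0.0379, Siglec1 0.271 ± 0.0743 and Siglecg 0.110 ± 0.0397 CPM per kilobase. The ranges of Cd22, Siglece and Siglec1 overlapped, as did those of Siglecf and Siglec1.

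The other Siglecs examined were Siglech, Mag and Siglec15. Siglech, a microglial Siglec that signals through the activating adaptor DAP12, had 15.9, 14.9 and 17.2 CPM in Plekhg5+/+ and 23.6, 21.3 and 24.7 CPM in Plekhg5+/+ SOD1-G93A libraries. It rose by 0.54 on the log2 scale (SE 0.118, adjusted p = 0.03585, edgeR), and its log2 fold change was 0.52 without the first Plekhg5+/+ SOD1-G93A library (adjusted p = 0.1099, edgeR), so that the call was lost. In that library Siglech lay between the other two. Its log2 fold change in Plekhg5-/- SOD1-G93A against Plekhg5+/+ SOD1-G93A mice was -0.29 (adjusted p = 0.5348, edgeR). Mag, which oligodendrocytes place on the inner face of myelin, had 662 to 724 CPM in Plekhg5+/+, 675 to 871 in Plekhg5-/-, 751 to 814 in Plekhg5+/+ SOD1-G93A and 605 to 676 CPM in Plekhg5-/- SOD1-G93A libraries, and did not pass the test in any comparison. Siglec15, with 49.5 counts in all 12 libraries together, was too low to be tested.

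**Figure D4:**
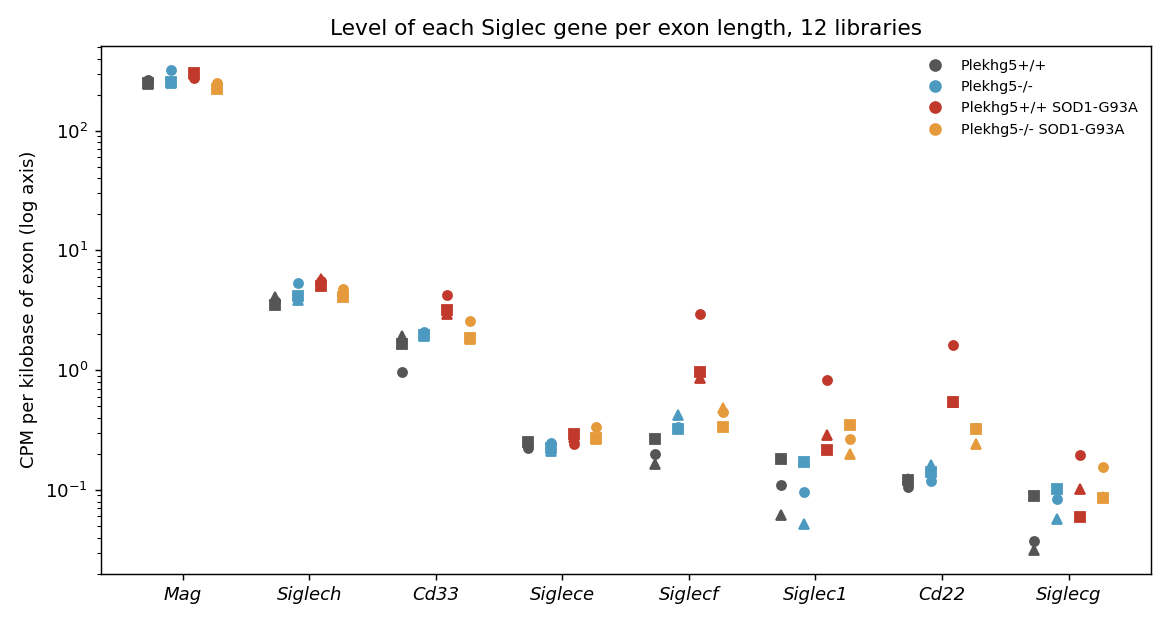
Level per kilobase of exon (CPM per kilobase, log axis) of the 6 Siglec members, Siglech and Mag in 12 libraries. Each symbol is 1 mouse (circle, square and triangle for replicates 1, 2 and 3), coloured by genotype. Mag, at 254 CPM per kilobase in Plekhg5+/+ mice, lies far above Siglech (3.77) and Cd33 (1.52), and Siglecg is lowest with 0.0529.

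The genes of Siglec signalling, of the opposing activating receptors and of their ligand were examined as lists. Of 15 signalling genes, 4 rose with SOD1-G93A in Plekhg5+/+ mice and 0 fell (adjusted p under 0.05, edgeR), against 2.09% of all genes tested called higher, with a median log2 fold change of 0.79 over the list. Of the 15, 2 rose without the first Plekhg5+/+ SOD1-G93A library, against 1.05% of all genes, and the median was 0.49. Among the 4 that rose in the fit of all libraries were Ptpn6, which encodes the phosphatase SHP-1 (1.29, SE 0.239), the kinase Btk (1.05, SE 0.217) and the phospholipase Plcg2 (0.81, SE 0.191). Without the first Plekhg5+/+ SOD1-G93A library Ptpn6 rose by 0.86, and the values of Btk (0.75, adjusted p = 0.07945) and Plcg2 (0.53, adjusted p = 0.1579) did not pass in edgeR. Ptpn11, which encodes the related phosphatase SHP-2, had a log2 fold change of -0.10 (SE 0.0620, adjusted p = 0.4219), and Lyn, the kinase that phosphorylates the ITIM of Cd22, had 0.81 (SE 0.199, adjusted p = 0.05386).

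Of 8 activating receptors and adaptors that signal through DAP12 or the Fc receptor gamma chain, 5 were tested and all 5 rose, against 2.09% of all genes tested, with a median of 1.68. When the first Plekhg5+/+ SOD1-G93A library was left out, 4 of the 5 rose, with a median of 1.21, and Clec7a had 2.84, Trem2 1.32, Tyrobp 1.21 and Fcer1g 1.12. The beta-glucan receptor Clec7a had a log2 fold change of 3.93 (SE 0.608), the lipid receptor Trem2 of 1.79 (SE 0.258), the DAP12 gene Tyrobp of 1.68 (SE 0.264) and the gamma chain gene Fcer1g of 1.56 (SE 0.275). Of 12 further inhibitory receptors 4 rose and 0 fell, against 2.09% of all genes tested called higher, with a median of 0.93. They were the B cell and myeloid receptor Cd72 (3.40, SE 0.638), Lilrb4a (5.28-fold), the inhibitory Fc receptor Fcgr2b (1.88, SE 0.353) and the collagen receptor Lair1 (0.89, SE 0.176). When that library was left out, 2 of the 12 rose, Cd72 (2.24) and Fcgr2b (1.21), against 1.05% of all genes, and the median was 0.68. In Plekhg5-/- SOD1-G93A against Plekhg5+/+ SOD1-G93A mice no gene of these lists passed an adjusted p under 0.05 with edgeR. An unadjusted p under 0.05 for a lower level was reached there by 6 of the 15 signalling genes, 4 of the 5 activating and 4 of the 12 inhibitory receptors, against 5.05% of all genes tested. With the library left out it was reached by 2, 4 and 0 of them, against 2.85% of all genes.

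The enzymes that make, attach and remove sialic acid did not pass the test in any direction. Of 7 genes of sialic acid synthesis and transport, 19 tested sialyltransferases and 4 sialidases, 0 were called in Plekhg5+/+ SOD1-G93A against Plekhg5+/+ mice. Over all genes tested 2.09% were called higher and 0.377% lower, so that 0 calls in lists of this size say little about these genes. The medians of their log2 fold changes were -0.01, -0.09 and 0.09. At an unadjusted p under 0.05, 1 sialyltransferase was higher and 2 were lower, against 10.6% of all genes higher and 7.51% lower. St6gal1, which attaches the α2,6-linked sialic acid to which Cd22 binds, had a log2 fold change of -0.12 (SE 0.0778, adjusted p = 0.4559, edgeR). Gne, the first enzyme of sialic acid synthesis, had -0.08 (SE 0.0592, adjusted p = 0.4933, edgeR). Both were chosen for their role after the lists were tested.

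**Figure D5:**
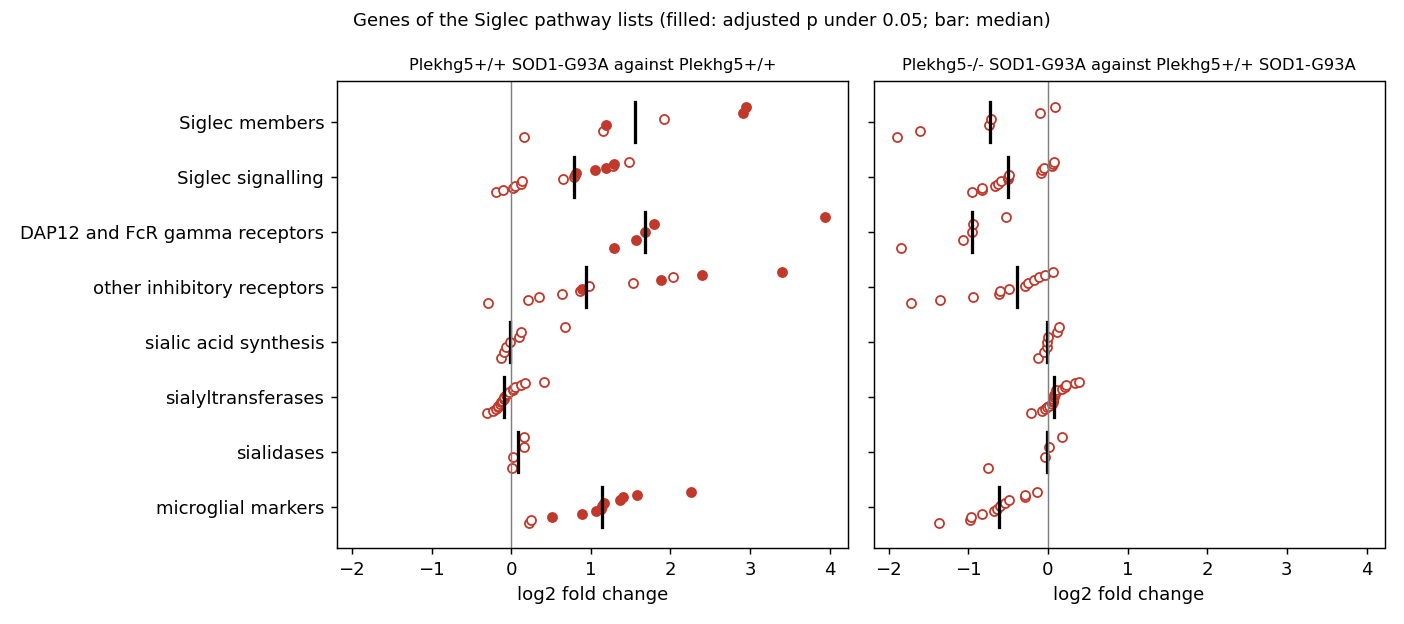
Log2 fold changes (edgeR) of the genes of 8 lists between Plekhg5+/+ SOD1-G93A and Plekhg5+/+ mice (left) and in Plekhg5-/- SOD1-G93A against Plekhg5+/+ SOD1-G93A mice (right). Each point is 1 gene, filled at an adjusted p under 0.05, and the bar is the median of the list. In the left panel the medians are 1.55 for the Siglec members and 1.68 for the DAP12 and FcR gamma receptors, and lie near 0 for the 3 lists of sialic acid enzymes. The Plekhg5+/+ SOD1-G93A libraries enter both panels.

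The genes whose log2 levels over the 12 libraries were most like those of each member were named by the root mean square (RMS) difference of centred values, among 16609 genes with a mean of at least 1 CPM. Nearest to Cd22 were the leukocyte surface gene Cd52 (RMS difference 0.264), the receptor Cd72 (0.265) and the protease inhibitor Timp1 (0.273), against a median of 1.12 over all genes. Nearest to Siglecf were the immune receptor Slamf9 (0.373), the macrophage pore gene Mpeg1 (0.373) and the lysosomal marker Cd68 (0.376), with a median of 1.05. Among the nearest to Cd33 were the integrin Itgam (0.204) and the prostaglandin synthase Hpgds (0.217), with a median of 0.529. Itgam is one of the microglial markers used above. Siglec1 lay nearest to the interferon gene Ifi207 (0.428), the scavenger receptor Msr1 (0.436) and S100a4 (0.439), and Siglecg to Slc44a3 (0.314), S100a11 (0.330) and Akr1b8 (0.333), with medians of 1.03 and 0.611. Siglece, which varied least, lay nearest to 1700003E16Rik (0.108), Thtpa (0.110) and Gm12502 (0.112), where the median was 0.219. The medians lay near the RMS of each member about its own mean, 1.11 for Cd22, 1.04 for Siglecf, 0.511 for Cd33 and 0.171 for Siglece. They therefore mostly reflect how much a member varied, and do not show how close the named genes are. These values are a description over 12 libraries of 4 genotypes, and were not computed without the first Plekhg5+/+ SOD1-G93A library.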

How the data were processed

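Total RNA of the spinal cord of 12 mice was sequenced by the authors from poly-A enriched, stranded libraries. According to the submitters' notes and the study's methods, reads were trimmed with Cutadapt (version 2.4), mapped with STAR (2.7.2b) to GRCm38.p6 with the human SOD1 cDNA added, and assigned by strand to RefSeq exons with featureCounts (1.6.4). The values that the authors deposited are estimated counts per gene (an expected count need not be whole), not whole in 17.3% to 18.1% of the entries because reads with several matches or on overlapping genes were counted in fractions. Reads shared between similar genes of the family can therefore be split among them. The unit of the values is neither normalized nor filtered.

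Counts were rounded, filtered with filterByExpr (20155 of 45906 genes kept), normalized with TMM and tested with edgeR (version 4.0.16, R 4.3.3) by robust quasi-likelihood fits of all 12 libraries together. The Benjamini-Hochberg adjustment ran over all genes tested (threshold 0.05), and standard errors came from these fits. Levels are counts scaled to the normalized library size (CPM). For levels relative to microglial markers, two-sided exact permutation tests were used (SciPy 1.17.1). Likeness used log2 CPM with a prior count of 2. Plots were drawn with matplotlib 3.10.9 in Python 3.11.15. On simulated data of the comparison of Plekhg5+/+ SOD1-G93A with Plekhg5+/+, 200 of 20155 genes were changed. Here edgeR called all 200 and 18 unchanged genes, and DESeq2 (version 1.42.0) without a prior called 200 and 45 unchanged genes. The changed genes were drawn from those with higher counts and given large fold changes, and no simulated library stood apart. Recovery of genes with few counts or smaller changes, as among the members, was not tested.

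The alternatives were DESeq2 without and with a prior on fold changes, the latter being the test of the study, DESeq2 size factors in edgeR, no filter, at least 10 counts in every library, only the 2 genotypes of a comparison, a block for the replicate number, a covariate for Y-linked transcripts, a pseudocount of 1 CPM, 7 of the 12 microglial markers, and each library left out in turn. The members, lists and tests were chosen with earlier results of these data known. All members are named, and of each list the changed genes with the largest fold changes, up to 4, as well as the 3 genes most like each member, except for some genes that are not reported here. Lyn, Ptpn11, St6gal1 and Gne were added for their role after values were seen. Promoter sequences were taken from RefSeq on GRCm38.p6, for 5 of the 6 members. The p-values of edgeR set a difference against the spread between these mice, which is estimated over the 4 genotypes together and with information from other genes. Libraries of 30415643 to 38743628 counts held 4 to 24.5 counts of Siglecg, the member with the fewest. 0 columns remained without a sample.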

Additional observations from a re-analysis of the deposited data

Results flagged for a closer look

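For 3 members, the estimated difference between Plekhg5-/- and Plekhg5+/+ mice had opposite signs without and with the transgene. The share of all genes with this pattern was not counted. In Cd22, Cd33 and Siglecf, every Plekhg5-/- library lay above the mean of the Plekhg5+/+ libraries, and every Plekhg5-/- SOD1-G93A library lay below the mean of the Plekhg5+/+ SOD1-G93A libraries. Without the transgene none of the 3 had an unadjusted p under 0.05 (edgeR), and the libraries of Cd22 overlapped. Of the 12 microglial markers, 10 had a positive estimate for Plekhg5 loss without the transgene and 0 with it. For the 3 members, the change of the difference was tested by the interaction in edgeR, on the same values that picked them. It was -1.87 on the log2 scale for Cd22 (SE 0.595, adjusted p = 0.4072), -1.14 for Cd33 (SE 0.310, adjusted p = 0.375) and -2.68 for Siglecf (SE 0.635, adjusted p = 0.3384), and none of the 3 passed the adjustment. Without the first Plekhg5+/+ SOD1-G93A library the values were -1.13, -0.96 and -1.87. The adjusted p over the alternatives lay between 0.03028 and 0.7998 for Cd22, between 0.05282 and 0.7998 for Cd33 and between 0.004484 and 0.7998 for Siglecf.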

How the results depend on the processing

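The count of changed members depended on the test and on single libraries. Between Plekhg5+/+ SOD1-G93A and Plekhg5+/+ mice it was 3 as reported, 0 when the fit held only the 2 genotypes compared (adjusted p of 0.07576 for Cd22, 0.09243 for Cd33 and 0.09228 for Siglecf), and 0 to 4 with each library left out, 0 without the first (adjusted p 0.06614 to 0.06803) and 0 without the second Plekhg5+/+ library (0.09156 to 0.09812), 2 without the first and 4 without the second Plekhg5+/+ SOD1-G93A library. In the 3 settings with 0 members edgeR called 3, 4 and 2 genes in the whole table against 498 as reported, and the fold changes of Cd22 and Siglecf stayed above 2.88 on the log2 scale. DESeq2 called 1159 genes there, 1200 with the prior. For Plekhg5-/- SOD1-G93A against Plekhg5+/+ SOD1-G93A mice the count of members was 0 as reported and 2 with DESeq2 without and with the prior (75 and 115 genes in all, against 7), and for the interaction it was 0 as reported, 1 with DESeq2 and 2 with the prior. The cause was not tested.

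The sign of a fold change turned for Siglecg between the transgenic genotypes with Y-linked transcripts as a covariate (0.10). With each library left out in turn, it ranged from -0.43 to 0.44 for Siglecg, from -1.02 to 0.10 for Siglec1 and from -0.0089 to 0.163 for Siglece in that comparison, from -0.66 to 0.31 for Siglec1 without the transgene, from -0.12 to 0.13 for Cd33 in mice without Plekhg5, and from -1.02 to 0.24 for the interaction of Siglec1. Levels relative to microglial markers turned with a pseudocount of 1 CPM for Cd22 (-0.0668) and Siglecg (-0.042) in Plekhg5-/- against Plekhg5+/+ mice and for Siglece (-0.0455) and Siglecg (-0.136) with SOD1-G93A in mice without Plekhg5. Without the homeostatic markers they turned for Cd33 with SOD1-G93A (-0.0936) and with Plekhg5 loss in transgenic mice (0.0217), and for Siglece (-0.0315) and Siglecg (-0.0311) with SOD1-G93A in mice without Plekhg5. None of these values had passed a test. With libraries left out, relative levels turned within -0.16 to 0.25 (Cd22), -0.0512 to 0.441 (Cd33) and -0.706 to 0.0708 (Siglec1) without the transgene, -0.13 to 0.36 (Cd33) and -0.40 to 0.18 (Siglecg) with SOD1-G93A in Plekhg5+/+ mice, -0.20 to 0.17 (Siglecf), -0.0114 to 0.142 (Siglece) and -0.14 to 0.19 (Siglecg) with SOD1-G93A in mice without Plekhg5, and -0.12 to 0.44 (Siglec1) between the transgenic genotypes. The other settings gave the same direction and the same side of the threshold in 216 member fold changes. There a call was gained in 9, a call was lost in 3 and the sign turned in 1. With libraries left out, 199 stayed the same, a call was gained in 1 and lost in 7, and the sign turned in 9. Fold changes without an adjusted p were counted as on the same side.

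The labels do not say whether replicate numbers pair the mice. Among 18 pairs with the same number, correlations of deviations from the genotype means ran from -0.163 to 0.318, and 5 exceeded 0.1. The highest, 0.318 and 0.298, were both of replicate 1. Of the 12 libraries, 6 were most like a library of another genotype with their own number. Whether libraries of the same number shared a batch cannot be told from these values. With the replicate block the members called were 3 and 0, and 631 and 8 genes in all, in the comparisons of Plekhg5+/+ SOD1-G93A with Plekhg5+/+ and with Plekhg5-/- SOD1-G93A. Siglecg had the fewest counts of the members, 4 to 24.5, and could not be tested with at least 10 counts in every library.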
